A study of Mus musculus with 13 samples.

Results

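The G2/M and mitosis genes described here are 40 genes whose products carry a cell from the end of DNA replication through chromosome segregation to cytokinesis. They were listed by name, with no measured value in the rule, and a gene counted as measured where the annotation gives a probe that symbol and no other. Of the 40 genes, 39 had such a probe, and all 39 lay above the filter on low values that left 16322 genes in all. Ccnb1, which encodes cyclin B1, had no probe with 1 symbol in the annotation used, so no level is given for it. Top2a alone among them had a second such probe, and its brighter probe was used. The mice were C57Bl6 males at postnatal day 30, and the tissue was their whole back skin in anagen, when hair follicles grow. They lived in 12 h light and 12 h dark, and skin was taken at 4 h steps between ZT2 and ZT50, with ZT as the hours since the lights first went on. RNA of 3 mice was pooled per time point and measured on 1 array, so the 13 pools came from 39 mice and the spread between single mice was not seen. The 6 dark pools were ZT14, ZT18, ZT22, ZT38, ZT42 and ZT46, and the 7 light pools were ZT2, ZT6, ZT10, ZT26, ZT30, ZT34 and ZT50. All mice carried the same genotype as far as the labels state, and none is labelled as treated.

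Entry into mitosis is driven by Cdk1 bound to A and B cyclins, after Cdc25 phosphatases remove the phosphates that hold it inactive. Aurora and polo-like kinases then organise the spindle, the spindle checkpoint holds back anaphase until every kinetochore is attached, and Cdc20 with the anaphase-promoting complex ends the hold by marking securin and B cyclins for degradation. In growing cells the transcripts of these genes accumulate late in the cycle, in large part under the DREAM and B-Myb complexes, which bind a promoter element called the CHR. In anagen skin the dividing cells lie mainly in the hair matrix, the outer root sheath and the basal epidermis.

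The measure was probe intensity on a linear scale as deposited. Array medians lay between 440.0 and 483.2, and any pair of pools correlated at 0.978 to 0.996 over the 16322 genes. The summed levels of some cell type markers differed between the skin pools. The 12 skeletal muscle markers summed to between 44417 and 78856 in the dark pools and between 39702 and 77768 in the light pools, with the lowest mean in ZT2 and the highest in ZT30. The 8 hepatocyte markers summed to between 3437 and 30935 in the dark pools and between 3548 and 7088 in the light pools, with the highest mean in ZT46. No marker of any list was at 0 in any pool.

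The 39 genes all lay above the filter on low values of 7.61 log2, and the lowest mean was 8.49 log2, for Kif20b. Their mean intensity over the 13 pools lay between 347 for Kif20b and 4199 for Ube2c, and intensities of different probes cannot be set against each other. The ratio of a gene's highest pool to its lowest pool was between 1.20 and 1.73, with a median of 1.34. The median range over the pools was 0.41 log2, against 0.38 for all genes tested. None of the 39 genes passed the test of a 24 h wave, of a linear drift over the 2 days or of a difference between dark and light. What the genes had most in common was a low level in the ZT38 pool, in the early second night.

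ZT38 held the lowest of the 13 values for 27 of the 39 genes, against 9.19% of all genes tested. Only Ndc80 lay above its own mean in that pool, and Ndc80, Pttg1 and Mki67 did so in ZT42. ZT14, the pool at the same hour of the first night, had 35 of the 39 above their own mean. The intensity in ZT38 was between 0.691 and 0.957 times that in ZT14, with a median of 0.807, and it was the lower value for 39 of 39 genes, against 53.8% of all genes tested. Over all genes the median ratio of ZT38 to ZT14 was 0.990. On the log2 scale, with each gene centred on its mean, the 39 genes averaged -0.20 in ZT38 and 0.09 in ZT14, while all genes averaged 0.00 in ZT38 and 0.02 in ZT14. ZT38 is 1 pool on 1 array, so this is a description of that pool with no test. In whole skin, fewer dividing cells and less of these transcripts per dividing cell cannot be told apart.

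**Figure D1:**
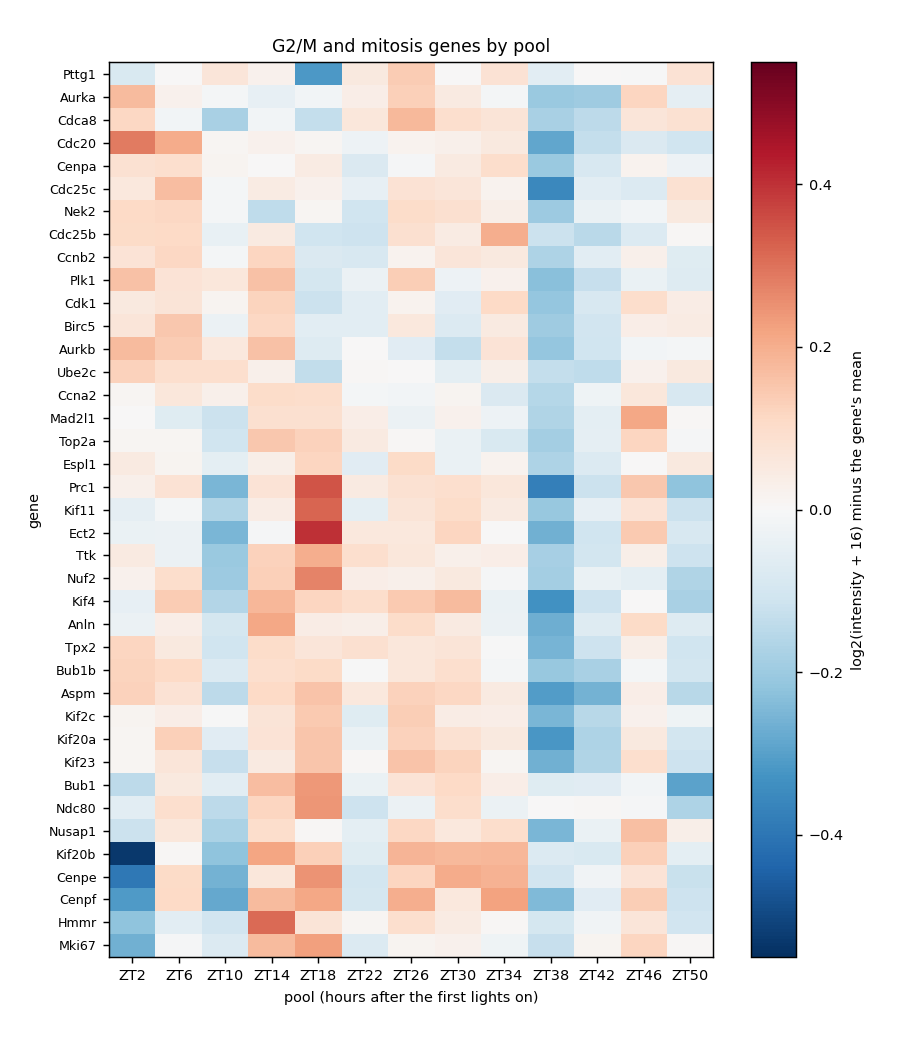
Heat map of log2(intensity + 16) minus each gene's mean for the 39 measured genes (rows) in the 13 pools (columns, in hours since the lights first went on). Red is above and blue below the gene's own mean, and the ZT38 column is below the mean for every gene but Ndc80.

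The 39 genes also covaried. Over the 741 pairs among the 39 genes, the correlation across the 13 pools had a median of 0.53, with quartiles of 0.29 and 0.69, and 53.6% of pairs were above 0.5. Pairs of one of these genes with a gene outside the list had a median of 0.06, and 11.6% of them were above 0.5. All values of a pool share 1 RNA mixture and 1 array, so these correlations are a description over 13 points. Without ZT38 the median over the 741 pairs was 0.36, with 34.7% above 0.5, against a median of 0.05 and 11.01% for pairs with a gene outside the list. Kif20a, a kinesin of late mitosis, followed the mean of the other 38 most closely (r = 0.97), and the median gene had r = 0.71 with the mean of the others. Pttg1, which encodes securin, stood apart at r = -0.12. Its centred level was -0.31 log2 in ZT18, where the 39 genes averaged 0.08, and no r without that pool is given here.

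**Figure D2:**
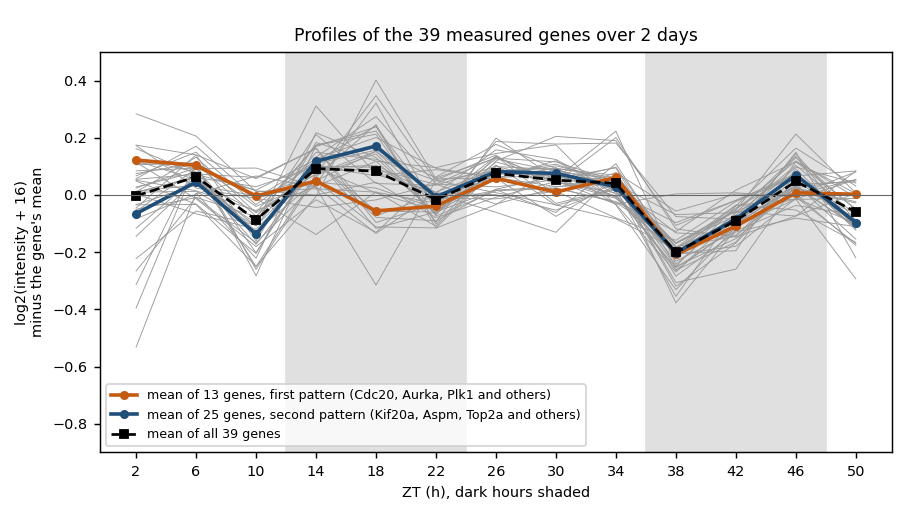
Centred log2 level of each of the 39 genes (grey lines) against ZT in hours, with the mean of all 39 (black squares) and the means of 2 groups of genes found by clustering (orange, 13 genes, and blue, 25 genes). Dark hours are shaded, both group means are near -0.20 in ZT38, and they part in ZT2 and ZT18.

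Genes that accumulate late in the cycle often carry the CHR, TTTGAA, near the start of transcription, and a CCAAT box upstream of it. Promoter windows of 300 bases, from 250 bases before to 50 after an annotated start, were taken from RefSeq (GRCm38.p6) for the 35 of the 40 genes in its promoter table, and both strands were searched. The genes without an entry were Ccna2, Cdc25c, Aurkb, Kif20a and Tpx2. TTTGAA was present in 25 of the 35 windows (71.4%), against 12.9% of the 12847 tested genes with a window and 18.1% of all 27025 windows. Within 50 bases of the start it was present in 23 of the 35 (65.7%), against 3.21% of the tested genes. CCAAT was present in 26 of the 35 (74.3%), against 37.7% of the tested genes. CACGTG, the E-box form bound by the clock proteins CLOCK and BMAL1, was present in 3 of the 35 (8.57%), in Anln, Ttk and Espl1, against 9.31% of the tested genes. None of the 3 motifs contains another, although their end letters can be shared. A match describes the letters of a window and is not a binding site.

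The 6 windows with the most matches, chosen by that count and then by level, are shown to let the motif be seen in place, and each holds 2. They are printed 5′ to 3′ on the strand of the gene, the first transcribed base (+1) following the first 250 bases. TTTGAA, or its reverse complement TTCAAA, is in capitals. Mki67 lies at chr7:135716330-135716629, Ccnb2 at chr9:70421505-70421804, Top2a at chr11:99024140-99024439, Cdk1 at chr10:69352863-69353162, Anln at chr9:22389157-22389456 and Ect2 at chr3:27153829-27154128, all on the minus strand.
Mki67: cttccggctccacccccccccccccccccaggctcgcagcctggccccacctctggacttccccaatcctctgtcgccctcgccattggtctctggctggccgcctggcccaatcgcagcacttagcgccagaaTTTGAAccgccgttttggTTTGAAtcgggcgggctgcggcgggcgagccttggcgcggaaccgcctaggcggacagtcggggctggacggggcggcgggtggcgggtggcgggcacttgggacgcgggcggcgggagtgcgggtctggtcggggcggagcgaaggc
Ccnb2: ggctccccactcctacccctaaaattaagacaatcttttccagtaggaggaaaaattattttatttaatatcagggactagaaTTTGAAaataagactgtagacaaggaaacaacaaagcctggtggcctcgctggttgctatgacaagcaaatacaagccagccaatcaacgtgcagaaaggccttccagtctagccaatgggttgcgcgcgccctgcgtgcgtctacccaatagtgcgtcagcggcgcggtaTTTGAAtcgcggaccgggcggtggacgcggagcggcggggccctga
Top2a: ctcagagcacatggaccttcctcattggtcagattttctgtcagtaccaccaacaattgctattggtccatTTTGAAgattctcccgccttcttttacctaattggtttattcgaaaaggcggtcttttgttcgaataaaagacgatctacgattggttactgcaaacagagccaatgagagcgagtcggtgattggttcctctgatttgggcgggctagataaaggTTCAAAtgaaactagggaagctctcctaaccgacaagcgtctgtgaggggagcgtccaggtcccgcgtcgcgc
Cdk1: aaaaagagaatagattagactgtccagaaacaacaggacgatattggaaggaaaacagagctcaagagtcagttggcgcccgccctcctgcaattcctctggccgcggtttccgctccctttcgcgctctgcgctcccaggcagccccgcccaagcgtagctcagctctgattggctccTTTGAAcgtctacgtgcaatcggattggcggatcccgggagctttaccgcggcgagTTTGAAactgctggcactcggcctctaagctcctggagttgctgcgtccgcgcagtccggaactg
Anln: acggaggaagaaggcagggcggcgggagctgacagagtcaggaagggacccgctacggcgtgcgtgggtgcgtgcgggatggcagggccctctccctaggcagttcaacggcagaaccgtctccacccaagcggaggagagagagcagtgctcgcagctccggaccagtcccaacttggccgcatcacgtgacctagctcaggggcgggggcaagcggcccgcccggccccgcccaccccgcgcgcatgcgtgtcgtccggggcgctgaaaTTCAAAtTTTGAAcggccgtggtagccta
Ect2: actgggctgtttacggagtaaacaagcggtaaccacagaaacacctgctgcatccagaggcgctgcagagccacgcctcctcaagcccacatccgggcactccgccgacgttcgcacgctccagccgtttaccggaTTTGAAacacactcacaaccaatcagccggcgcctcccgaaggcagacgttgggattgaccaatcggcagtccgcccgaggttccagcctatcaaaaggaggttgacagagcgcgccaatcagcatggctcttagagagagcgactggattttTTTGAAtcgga
In the Cdk1 window the motif began 71 and 15 bases before the start, at -71 and -15, with 3 CCAAT boxes in the window. In Ccnb2 it began at -167 and at +5, in Top2a at -179 and -23, in Mki67 at -116 and -98, in Anln at +22 and +29, and in Ect2 at -114 and +40. Kif20b was the seventh gene with 2 matches, 18 genes had 1 match, and 10 had none, among them Ccnb1, Birc5, Nek2, Pttg1 and Cdc25b.

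The cyclins, Cdk1 and the Cdc25 phosphatases set off mitosis. Cdk1, the kinase itself, had intensities of 1902, 1607, 1673, 1503, 1641 and 1867 in the dark pools ZT14, ZT18, ZT22, ZT38, ZT42 and ZT46, in that order. In the light pools ZT2, ZT6, ZT10, ZT26, ZT30, ZT34 and ZT50 it had 1812, 1834, 1764, 1766, 1671, 1882 and 1795. The dark pools thus held both its highest value (ZT14) and its lowest (ZT38), and the light pools lay between them. Ccnb2 (cyclin B2), an activating partner of Cdk1, ran from 2819 to 3447 in the dark, with a median of 3027, and from 3032 to 3431 in the light, with a median of 3293. Ccna2 (cyclin A2), which acts from S phase into G2, had the smallest ratio of highest to lowest pool among the 39 genes (1.20) and ran from 3254 to 3897 in the dark and from 3421 to 3791 in the light. For both cyclins ZT38 was the lowest pool and ZT14 the highest.

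Of the 5 measured genes of this set, 4 had a fitted dark level below the light one, and Ccna2 did not. The differences were widest for Cdc25b and Cdc25c. Cdc25b had 1142, 1019, 1017, 1014, 994 and 1047 in the dark pools, against 1187, 1192, 1072, 1173, 1137, 1269.5 and 1107 in the light pools. Its dark pools other than ZT14 were all below every light pool. Cdc25c ran from 382 in ZT38 to 509 in the dark, with a median of 475, and from 489 to 557 in the light, with a median of 517. The dark and light values of both genes overlapped, and neither difference passed the test described further on.

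Among the mitotic kinases, Plk1, which acts from mitotic entry to cytokinesis, had 2280.1, 1903, 1993, 1731, 1864 and 1984 in the dark pools. The light pools had 2279, 2143, 2124, 2239, 1994, 2068 and 1939. Its ZT14 and ZT2 values were nearly equal, and the 4 pools from ZT38 to ZT50 were among its 6 lowest. Aurka (Aurora A), a kinase of centrosomes and spindle poles, ran from 757 to 950.0 in the dark and from 845 to 988 in the light. Nek2, which helps centrosomes separate, ran from 717 to 832 in the dark, with a median of 785, and from 819 to 894 in the light, with a median of 879.5. Nek2 is the gene whose ZT38 value was closest to its ZT14 value (ratio 0.957), and both pools were low for it.

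The chromosomal passenger complex corrects faulty attachments of chromosomes to the spindle. Its kinase Aurkb (Aurora B) had 2806, 2381, 2512, 2157, 2323 and 2479 in the dark pools. The values in the light pools were 2829, 2762, 2608, 2402, 2287, 2641 and 2484. Its 3 highest pools were ZT2, ZT14 and ZT6, all in the first day, and dark and light pools overlapped. Birc5 (survivin) had 669.6, 593, 591, 536, 573 and 633 in the dark pools. Its light pools had 647, 686, 602, 643, 585, 639 and 637. Cdca8 (borealin) had 690.1, 636, 730.3, 614, 630.1 and 732 in the dark pools and 757, 692, 614, 791, 746, 733 and 741 in the light pools. For all 3 genes ZT38 was the lowest pool, although Cdca8 was as low in ZT10.

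The spindle checkpoint genes did not share a highest pool, which was ZT18 for Bub1 and Ttk, ZT2 for Bub1b and ZT46 for Mad2l1. Bub1, a kinase of the unattached kinetochore, ran from 1027 to 1273 in the dark and from 876 in ZT50 to 1162 in the light. Bub1b (BubR1), part of the complex that inhibits Cdc20, had 1212, 1221, 1132, 981, 1000.4 and 1126 in the dark pools and 1237, 1225, 1077, 1184, 1212, 1128 and 1058 in the light pools. Its lowest pools were ZT38 and ZT42. Mad2l1 (Mad2), another part of that complex, ran from 1655 in ZT38 to 2159 in ZT46 in the dark and from 1711 to 1894 in the light. Ttk (Mps1), the kinase that starts the checkpoint signal, ran from 658 to 863 in the dark and from 647 in ZT10 to 781 in the light.

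Of the genes of anaphase control, Cdc20, the activator of the anaphase-promoting complex, had 1120.2, 1111, 1081, 903, 1007 and 1042 in the dark pools. Light pools had 1347, 1275, 1113, 1117, 1126, 1145 and 1021. It was highest in the first 2 pools and stayed between 903 and 1145 in all later ones. Ube2c, the ubiquitin-conjugating enzyme of the same complex, ran from 3801 to 4277 in the dark, with a median of 4018, and from 4039.8 to 4579.9 in the light, with a median of 4348. Espl1 (separase), the protease that cuts cohesin, ran from 578 to 708 in the dark and from 627 to 702 in the light. Pttg1, its inhibitor securin, had a dark median of 846, with its lowest value, 676, in ZT18, the pool where 13 of the 39 genes had their highest value (15.7% of all genes tested did). In the light Pttg1 ran from 797 to 932.

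Of the 5 centromere and kinetochore genes, 1 was lowest in ZT38. This was Cenpa, the histone H3 variant that marks centromeres, which ran from 1477 to 1755 in the dark and from 1668 to 1821 in the light. Cenpe, a motor that carries chromosomes to the spindle equator, ran from 561 to 721 in the dark and from 457 in ZT2 to 701 in the light. Cenpf, a large kinetochore protein, ran from 579.5 to 800.3 in the dark and from 551 in ZT2 to 806 in the light. Ndc80 and Nuf2 encode subunits of the complex that grips microtubule ends, and both were highest in ZT18. Ndc80 ran from 810.5 to 1042 in the dark and from 780.1 to 941 in the light, and Nuf2 from 424 to 589 in the dark and from 419 to 519 in the light.

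Of the 6 kinesins, 5 were lowest in ZT38. Kif11 (Eg5), which pushes spindle poles apart, ran from 1402 to 2032 in the dark and from 1444 to 1743 in the light. Kif20a ran from 810.1 to 1129.8 in the dark and from 944 to 1114 in the light. For both genes the dark pools held the highest and the lowest value. Kif23, a motor of the central spindle, ran from 1161 to 1554 in the dark and from 1277 to 1559.7 in the light. Kif2c, which takes microtubules apart at centromeres, ran from 637 to 843 in the dark and from 749 to 837 in the light. Kif4, a motor on chromosome arms, had the lowest ratio of ZT38 to ZT14 of the 39 genes (0.691), with 379 against 549.

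Kif20b was the exception among the kinesins and had the widest range of the 39 genes. It had 403, 378, 328, 326, 324 and 378 in the dark pools and 233, 346, 293, 394, 391, 392 and 331 in the light pools. ZT2 was its lowest pool, as it was for Cenpe, Cenpf, Hmmr and Mki67. For these 5 genes the correlation with the mean profile of the hair matrix markers was between -0.74 and -0.45. Mad2l1 and Nusap1, which were lowest in ZT38, had -0.45 and -0.44. The hair matrix list was highest in ZT2, so grouping genes by a low ZT2 in itself favours a negative value. The part of the hair matrix, or of the low muscle markers of that pool, in these values was not tested.

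The spindle proteins Tpx2, Nusap1, Prc1, Hmmr and Aspm bind or organise microtubules. Prc1, which bundles the central spindle, had 1035, 1255, 1017, 753, 903 and 1092 in the dark pools. In the light pools it had 1002, 1039.7, 824, 1044, 1049, 1025 and 842. Its highest and lowest pools were both dark ones, ZT18 and ZT38, and its other dark and light pools overlapped. Tpx2, an activator of Aurora A, had 1068, 1043, 1059, 831, 917 and 1016 in the dark pools. The light values were 1082, 1033, 922, 1039, 1045, 992 and 922. Tpx2 was lowest in ZT38, and its next lowest values, in ZT42, ZT10 and ZT50, were within 5 units of each other. Nusap1 ran from 1188 to 1588 in the dark and from 1254 to 1535 in the light. Aspm, a spindle pole protein, ran from 530.0 to 737 in the dark and from 591 to 722 in the light, and Hmmr from 532 to 710.3 in the dark and from 486 to 607 in the light.

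The cytokinesis genes Ect2, which activates RhoA at the cell equator, and Anln (anillin), a scaffold of the contractile ring, differed in their highest pool. Ect2 had 1378, 1832, 1439, 1150.0, 1282 and 1529.9 in the dark pools and 1350.0, 1351, 1161, 1440.1, 1504, 1385 and 1299 in the light pools. ZT18 stood clear of its other pools. Anln was highest in ZT14 and ran from 1256 to 1759.5 in the dark and from 1417 to 1628 in the light.

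Top2a and Mki67 are the usual marks of dividing cells in tissue. Top2a (topoisomerase II alpha), which untangles chromosomes, had 2276, 2238, 2125, 1797, 1979 and 2228 in the dark pools. In the light pools it had 2065, 2069, 1901, 2062, 2002, 1935 and 2039. Of its 6 dark pools, 4 lay above every light pool and ZT38 lay below every one. A second Top2a probe, dimmer at a mean of 200.8, correlated with the first at 0.36 over the 13 pools. Mki67 (Ki-67), a coat protein of mitotic chromosomes, had 4434, 4589, 3730.5, 3593, 3974 and 4258 in the dark pools. In the light pools it had 3265, 3905, 3725, 3968, 3991, 3865 and 3942. Its 3 highest pools were dark, and its lowest was ZT2.

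**Figure D3:**
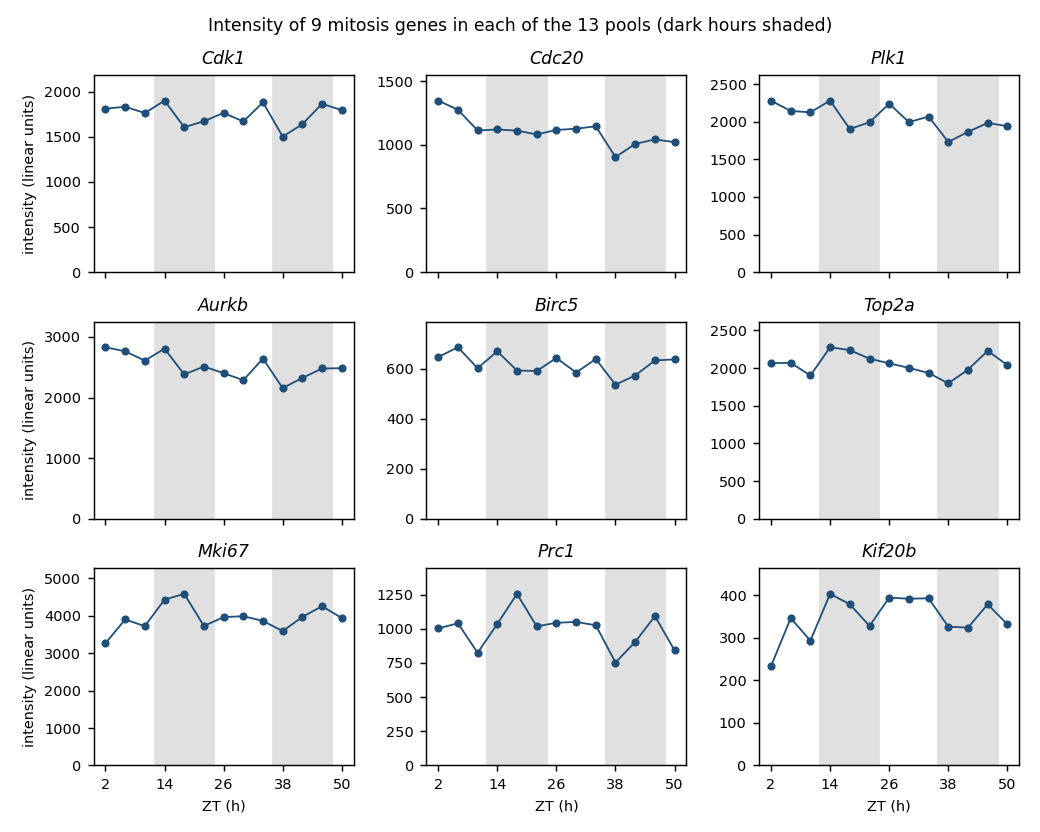
Intensity (linear units, axes from 0) of 9 of the genes in each of the 13 pools against ZT in hours, with dark hours shaded. Each point is 1 pool of 3 mice, and the lowest point is ZT38 for all but Mki67 and Kif20b, which are lowest in ZT2.

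The first test asked whether these genes followed a daily wave, a question that the study's title on daily cell proliferation raises. A cosine and a sine of 24 h were fitted to log2(intensity + 16) of every gene with linear time as covariate, and p-values were adjusted over all 16322 genes by Benjamini-Hochberg in limma. The wave passed at an adjusted p under 0.05 for 0 of the 39 genes, against 0.141% of all genes tested (23 genes). At an unadjusted p under 0.05 there were 4 of 39, Cdca8, Nek2, Aurka and Cdc25b, against 9.54% of all genes, and without ZT38 there were 2. The count was 7 with each array centred on its median and 1 with a level for each of the 6 times of day. Cdca8 had the largest amplitude, 0.13 ± 0.03 log2 (SE, 13 pools), a fold of 1.19 from peak to trough, a fitted peak 2.6 h into the light and an adjusted p of 0.436 in limma. The peaks of Aurka, Nek2 and Cdc25b were fitted at 1.8, 3.8 and 6.5 h. The next largest amplitudes were those of Ect2 (0.12 ± 0.07, peak 21.5 h), Cdc25b (0.11 ± 0.04) and Prc1 (0.11 ± 0.07, peak 21.9 h), given with their SE over 13 pools.

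The fits bound only a cosine wave of 24 h in RNA of whole skin, not a wave of another shape or one in the dividing cells alone. The median amplitude of the 39 genes was 0.07 log2, a fold of 1.097, against 1.088 for all genes tested. The upper 95% bound of the fold had a median of 1.27 and was largest for Prc1 (1.44). The fitted peaks lay between 20 and 8 h, the end of the night and the first part of the day, for 31 of the 39 genes (79.5%), against 44.4% of all genes tested. The measured highest pools lay elsewhere for many genes: ZT18 was highest for 13 of the 39 genes and ZT14 for 9. The mean centred level of the 39 genes was highest in those pools too, at 0.09 log2 in ZT14 and 0.08 in ZT18. The low ZT38 and ZT42 pools, at -0.20 and -0.09, enter every fitted peak, and peaks without them were not counted. None of these 31 waves passed the test, and the SE of a fitted peak was 1.1 h for Cdc25b and 21.2 h for Cenpf, so a peak time is a description.

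**Figure D4:**
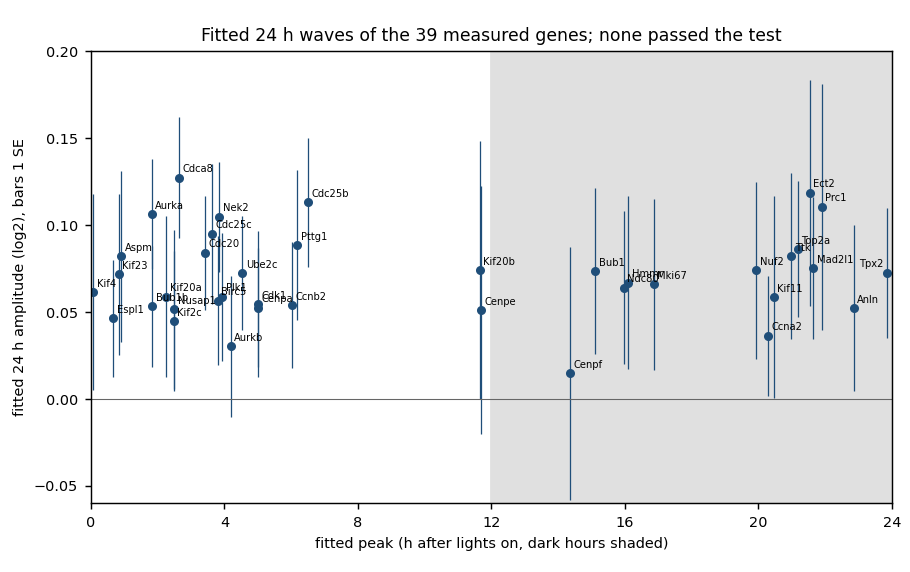
Fitted 24 h amplitude (log2, bars 1 SE over 13 pools) against fitted peak in hours after lights on, 1 point per gene, dark hours shaded. Amplitudes lie between 0.01 and 0.13, 31 of the 39 peaks lie between 20 and 8 h, and none of the waves passed the test.

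The pools of the second day did not repeat those of the first for these genes. Over the 6 times of day, the mean profile of the 39 genes in the second day, from ZT26 to ZT46, correlated with that in the first, from ZT2 to ZT22, at r = -0.67. The median over the 39 genes was -0.32, with 29 below 0 (74.4%), against a median of -0.11 and 58.6% below 0 for all genes tested. Nr1d1 and Dbp, 2 genes with a strong daily wave, had r = 0.91 and r = 0.90. At 14 h the second day was lower for 39 of 39 genes, with a median difference of -0.31 log2, and at 18 h for 36 of 39, with a median of -0.18. At 10 h it was higher for 36 of 39, with a median of 0.09. At 2, 6 and 22 h the medians were 0.02, 0.00 and 0.07. Among the single genes r ran from -0.88 for Hmmr to 0.85 for Nek2, each over 6 points.

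The drift over the 2 days was the linear time term of the same fit, in log2 per 24 h. It passed for 0 of the 39 genes and for 0% of all genes tested (0 of 16322). At an unadjusted p under 0.05 there were 6 of 39, all lower with time, against 8.8% of all genes, and 5.59% of all genes were lower at that level. Cdc20 had the steepest slope, -0.16 ± 0.04 per 24 h (SE, 13 pools), with an adjusted p of 0.325 in limma. In order of their unadjusted p, the other 5 were Bub1b (-0.11), Plk1 (-0.11), Tpx2 (-0.10), Aurkb (-0.11) and Aspm (-0.13), with adjusted p-values between 0.488 and 0.556 in limma. Prc1 and Nuf2 had slopes of -0.12 and -0.11 with an unadjusted p above 0.05. The slope was below 0 for 32 of the 39 genes, against 56.5% of all genes, and its median was -0.05 per 24 h, against -0.01 for all genes. The number at an unadjusted p under 0.05 dropped to 2 without ZT14, ZT38 or ZT50 and to 3 without ZT42.

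Dark pools were set against light pools with linear time as covariate. The difference passed for 0 of the 39 genes, against 0.00613% of all genes tested (1 gene). At an unadjusted p under 0.05 there were 3 of 39, all lower in the dark, against 12.4% of all genes, and there were 5 without ZT10, ZT14, ZT22 or ZT46. Cdc25b differed by -0.15 ± 0.05 log2, dark minus light (SE, 13 pools), with an adjusted p of 0.353 in limma, and Nek2 by -0.15 ± 0.05 with 0.346. Cdc25c differed by -0.13 ± 0.06 with an adjusted p of 0.402. The fitted difference was below 0 for 21 genes and above 0 for 18, while 44.4% of all genes lay below 0. Its median was -0.03, against 0.01 for all genes, and it was 0.02 without ZT38. Dark and light pools did not overlap for 0 of the 39 genes, against 0.276% of all genes.

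No gene of any role passed, and differences between roles were not tested. Over all genes tested, 44.4% had a fitted difference of dark minus light below 0. So did all 3 genes of the mitotic kinase set, all 3 chromosomal passenger genes and all 4 genes of anaphase control. Their medians were -0.08, -0.07 and -0.10 log2, and 4 of the 5 cyclin, Cdk1 and Cdc25 genes also lay below 0, with a median of -0.07. Of the kinases placed in other sets, Bub1 (0.10) and Ttk (0.07) lay above 0 and Aurkb (-0.04) and Cdk1 (-0.07) below. Of the 4 checkpoint genes 3 lay above 0, as did 4 of the 5 centromere and kinetochore genes, both cytokinesis genes and both Top2a and Mki67, with medians of 0.07, 0.03, 0.05 and 0.09. The kinesins were split, 3 below 0 and 3 above, and so were the spindle proteins, 2 below and 3 above, with medians of 0.00 for both. The 95% interval of the difference was -0.04 to 0.20 for Top2a and -0.05 to 0.24 for Mki67. A list's count and median are given as a description, and the median over all genes tested was 0.01.

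Clustering the 39 profiles by their correlation, done after the values were seen and given with no test, gave 2 groups and left Pttg1 by itself. The first held 13 genes, Aurka, Aurkb, Birc5, Ccnb2, Cdc20, Cdc25b, Cdc25c, Cdca8, Cdk1, Cenpa, Nek2, Plk1 and Ube2c. Their mean centred level was 0.12 in ZT2, 0.10 in ZT6 and -0.06 in ZT18. The second held the other 25, with all 6 kinesins, all 5 spindle proteins, all 4 checkpoint genes, Ccna2, Espl1, Cenpe, Cenpf, Ndc80, Nuf2, Ect2, Anln, Top2a and Mki67. Their mean was -0.07 in ZT2, -0.14 in ZT10, 0.12 in ZT14 and 0.17 in ZT18. In ZT38 both groups stood at the same level, -0.21 and -0.20. TTTGAA was present in 8 of 11 promoter windows of the first group and in 17 of 22 of the second.

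**Figure D5:**
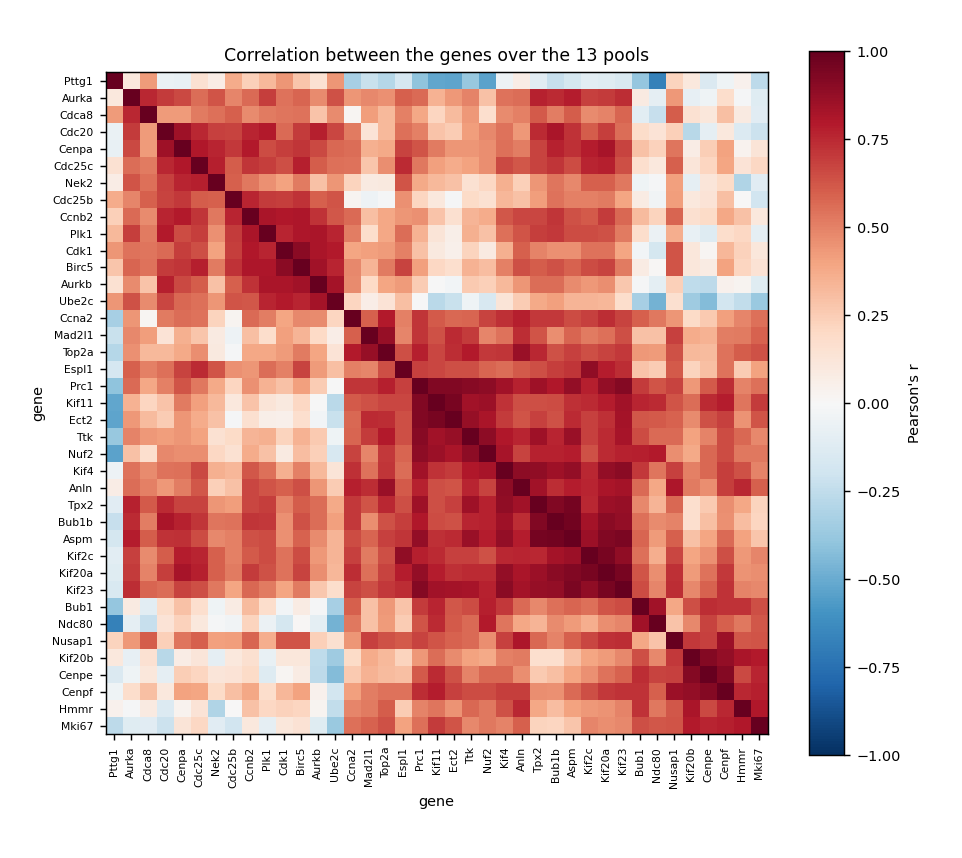
Pearson correlation over the 13 pools for each pair of the 39 genes (colour, negative in blue and positive in red), rows and columns in the order of the clustering. Pttg1 stands at the top left, then the 13 genes of the first group and the 25 of the second, and Pttg1 with Ndc80 is the lowest pair (-0.68).

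The closest pairs were Bub1b with Aspm (r = 0.96), Tpx2 with Aspm (0.95), Kif20a with Kif23 (0.95) and Kif11 with Ect2 (0.95). Within roles, the median correlation was 0.76 for the 15 pairs of kinesins, 0.62 for the 10 pairs among the cyclins, Cdk1 and the Cdc25 genes, and 0.37 for the 6 pairs of anaphase control. Known partners were paired by name, and 11 of 12 pairs were measured, the other being Ccnb1 with Cdk1. A two-sided permutation test of Pearson's r (100000 resamples, adjusted over the 11 pairs) passed for 6. Since the median of all pairs among these genes was 0.53, a correlation of that size is no mark of a partner. The test is against no correlation at all, and the share of all 741 pairs that would pass it was not counted. A pass therefore does not set partners apart from other pairs of these genes.

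Aurkb and Birc5, kinase and subunit of the passenger complex, had r = 0.84 and rho = 0.82 (adjusted permutation p = 0.0015 and 0.0046), and r = 0.77 without the 2 pools farthest from the median of Aurkb. Prc1 and Kif4, which meet on the central spindle, had r = 0.84 and rho = 0.79 (adjusted permutation p = 0.0013 and 0.0075), and r = 0.68 without the 2 farthest pools. Kif23 and Ect2 had r = 0.83 and rho = 0.88 (adjusted permutation p = 0.0013 and 0.0020), and r = 0.80 without those pools. Ndc80 and Nuf2 had r = 0.79 and rho = 0.66 (adjusted permutation p = 0.0038 and 0.043), and r = 0.57 without them. These 4 pairs passed by both measures.

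Aurka and Tpx2 had r = 0.77 and rho = 0.62 (adjusted permutation p = 0.0038 and 0.062), and r = 0.58 without the 2 pools farthest from the median of Aurka. Top2a and Mki67 had r = 0.64 and rho = 0.58 (adjusted permutation p = 0.034 and 0.077), and r = 0.49 without the 2 farthest pools. For this pair the adjusted p of r was no longer under 0.05 without ZT10, ZT14, ZT18, ZT38 or ZT46. These 2 pairs thus passed by r alone. Of the pairs that did not pass, Birc5 with Cdca8 had r = 0.55 and Bub1 with Bub1b 0.55 (adjusted permutation p = 0.075 each), and Ccna2 with Cdk1 had 0.39 (0.223). Cdc20 with Mad2l1, which inhibits it, had r = 0.14, and Pttg1 with Espl1, inhibitor and protease, had r = -0.17. Their adjusted permutation p-values were 0.659 and 0.623. Without the 2 pools farthest from the median of the first gene, r was -0.31 and 0.23 in turn. For Pttg1 those pools were ZT18 and ZT26.

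The wider cell cycle programme was low in the same pool. A list of 75 further G2/M and mitosis genes had a mean profile that correlated with that of the 39 at 0.98 over the 13 pools, and 41 of the 75 were lowest in ZT38. A list of 37 genes of the G1/S transition and DNA replication correlated at 0.72, and 14 of the 37 were lowest there. Of all genes tested, 9.19% were lowest in ZT38. In ZT38 the means of the lists were -0.17 and -0.10 log2. Of the further G2/M genes 0 of 75 passed any of the 3 tests. Over all genes tested 0.141% passed for the wave, 0% for the drift and 0.00613% for dark against light. Among the further G2/M genes Cdca3, a part of the ligase that degrades Wee1, had an amplitude of 0.15 ± 0.04 with a peak at 5.1 h. Wee1, the kinase that holds Cdk1 inactive, had an amplitude of 0.15 ± 0.04 with a peak at 14.1 h and an adjusted p of 0.404 in limma, and is known as a target of the clock in liver. Smc4 and Kif22 had amplitudes of 0.14 and 0.11, and Racgap1, the partner of Kif23, had a slope of -0.18 ± 0.06 per 24 h (SE, 13 pools), Spag5 one of -0.14 and Troap one of -0.12.

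Markers of other cells moved with these genes in part. The mean profile of 6 measured fibroblast markers correlated with that of the 39 genes at 0.59, that of 6 endothelial markers at 0.59, that of 7 markers of differentiated epidermis at 0.54 and that of 7 macrophage and dendritic cell markers at 0.50. The skeletal muscle list had -0.20 and the hair matrix list -0.18. Basal epidermis and outer root sheath had 0.43, T and B lymphocytes (2 markers measured) 0.41, erythroid cells 0.26, sebaceous gland 0.09, hepatocytes 0.01, melanocytes -0.08 and adipocytes -0.12. Thus 9 of the 13 cell lists had a positive value. All share the arrays of the 39 genes, and these are descriptions over 13 points. In ZT38 the endothelial list stood at -0.13, the macrophage list at -0.16, the lymphocyte list at -0.16, the fibroblast list at -0.13, the basal epidermis list at -0.03 and the hair matrix list at 0.05. The hepatocyte list stood highest in that pool, at 0.47, and the adipocyte list at 0.10. Melanocytes stood at -0.07, erythroid cells at -0.05, differentiated epidermis at -0.02, skeletal muscle at -0.01 and sebaceous gland at 0.01. The 6 endothelial markers summed to between 4699 and 5504 in the dark pools and between 4743 and 5696 in the light pools, and the 7 macrophage markers to between 7928 and 9137 in the dark and between 8105 and 10113 in the light. The 12 hair matrix markers summed to between 71654 and 81729 in the dark pools and between 73700.1 and 85788 in the light pools. The part of the cell makeup of the pool in the low ZT38 values was not tested.

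Outside the 39, the genes whose profile was most like the mean of the 39 over the 13 pools were found by Pearson's r among all genes tested. They were Odf2 (0.92), Cit (0.92), Adamts12 (0.91), Cep192 (0.91), Apaf1 (0.90), Erap1 (0.90), Neil3 (0.89), Ugdh (0.88), Ckap2 (0.87) and Sema3d (0.87). Cit and Ckap2 are in the list of further G2/M genes, and the other 8 are in neither cell cycle list used here. Of the 10 genes 9 were lowest in ZT38, against 9.19% of all genes tested. They were chosen for likeness to a mean that was itself lowest in ZT38, so this count largely follows from the choice. Neil3 had 443 there against 641 in ZT14, and Adamts12 had 969.8 against 1282.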

How the data were processed

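Gene expression was measured in 13 pools of whole back skin, each of 3 mice on 1 Affymetrix array. The submitters' processing notes name PLIER 2.0 and Affymetrix Expression Console 1.1.1, with no role. The deposited values were read as linear probe intensity from their range. The authors' scaling between arrays and genome build are not given in the sources used here. The table holds 35557 probes. Of these, 21789 have 1 symbol in the platform annotation used and 1621 have several, and 21698 of those with 1 symbol matched RefSeq's gene table (GRCm38.p6), with 0 symbols updated.

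Intensities were converted to log2(value + 16), which makes folds of dim genes too small. The filter on low values kept single-symbol probes whose mean reached 7.61 log2, the 25th percentile over all probes, and 1 probe per gene, the brightest. All tests across genes used limma 3.58.1 (R 4.3.3), with Benjamini-Hochberg adjustment over the 16322 genes and calls at an adjusted p under 0.05. The wave and the drift come from 1 fit of 24 h cosine and sine terms with linear time over 13 pools. Dark and light were compared with linear time as covariate. Partner correlations used permutation in scipy 1.17.1, where the smallest p that 100000 resamples can give is 1e-05. Clustering was average linkage on correlations. The fits were tested on simulated data.

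The labels name no mouse as shared by 2 pools, and the number of arrays limits the precision. With 1 pool per time point, limma p-values rest on the spread of single pools about the fitted model. That spread mixes differences between mice, arrays and days with any lack of fit. Partner p-values rest on permuting the pools. The 40 genes, the lists beside them and the tests were chosen with earlier results of these data known. Values in every pool are given for Cdk1, Cdc20, Plk1, Aurkb, Birc5, Top2a and Mki67, for the 4 genes with the largest amplitude, the 4 with the steepest drift by its t and the 2 with the widest range. Outside the 40, the 10 genes most like their mean were named, passing over predicted genes, RIKEN clones, microRNAs and small nucleolar RNAs, and, of the further G2/M genes, the 4 with the largest amplitude and the 4 with the steepest drift. Promoters are those of up to 6 genes with the most CHR matches, then the highest level. Alternatives were other scalings, pseudocounts of 1 and 64, other filters, all probes, a trend with robust prior, muscle or hair matrix means as covariates, other time terms, and leaving out each pool.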

Additional observations from a re-analysis of the deposited data

Results flagged for a closer look

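For each of the 39 genes and for their mean, the highest and the lowest value were set against the rest of the dark pools (n = 6) and of the light pools (n = 7) by Dixon's ratio, the gap to the nearest pool over the whole range. Ratios were taken on the log2 scale, while the values printed beside them are linear intensities. Of 80 such groups of values, 5 stood apart at the 95% level, where chance gives about 1 in 20.

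Cdc25b was high in ZT14 among the dark pools, at 1142 against 994 to 1047 in the other 5, a ratio of 0.625. Cdc25c was low in ZT38 among the dark pools, at 382 against 468 to 509, a ratio of 0.703. Pttg1 was low in ZT18 among the dark pools, at 676 against 812 to 877, a ratio of 0.704. Kif2c was high in ZT26 among the light pools, at 837 against 749 to 784, a ratio of 0.589. Mki67 was low in ZT2 among the light pools, at 3265 against 3725 to 3991, a ratio of 0.656. The skeletal muscle markers were also lowest in ZT2, and their part in the Mki67 value was not tested.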

How the results depend on the processing

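The 39 genes had 0 calls in every fit run, with Kif20b left out by the 50th percentile filter. There were 27 settings for the 24 h rhythm (smallest adjusted p 0.320 in limma), 26 for linear drift (0.181) and 26 for dark against light (0.151). Over all genes, the 24 h rhythm had 23 calls, 15 without a filter, 15 with the muscle mean as covariate, 9 with a level for each of the 6 times of day and 13 to 30 when a pool was left out. Dark against light had 1 call, 0 under quantile normalization, a pseudocount of 64, no filter, a trend with robust prior or the muscle covariate, 2 with a 50th percentile filter or without linear time, and 0 to 4 when a pool was left out. Linear drift had 0 calls throughout. The causes were not tested.

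The median slope of the 39 genes was -0.10 to -0.05 per 24 h over the alternatives and -0.08 to -0.03 without a pool. Their median dark minus light was -0.07 to -0.02 over the alternatives and -0.05 to 0.02 without a pool, the last without ZT38. The hair matrix covariate gave 16 genes with an unadjusted drift p under 0.05, against 6, and the muscle covariate or second day against first left 2. Those for the wave were 4, with 7 under median centring and 1 with a level per time of day. Those for dark against light were 3, with 9 under median centring, 7 with day number in place of linear time, 6 with the muscle covariate and 5 without linear time. Partner correlations passed for 6 pairs, 6 or 7 under the alternatives and 5 to 7 without a pool. Under median centring Birc5 with Cdca8 and Bub1 with Bub1b passed as well and Top2a with Mki67 (r = 0.56) did not. In comparisons added after the data were seen, quantile normalization and median centring gave a median pair correlation of 0.46 and 0.61, with 26 and 25 genes lowest in ZT38, and leaving out a pool gave 0.36 to 0.58. No paired analysis was possible because the labels carry no replicate numbers, so the second day was set against the first only by time of day, with time of day as a block. Arrays of 1 pool per time limit what the data can show: the upper 95% bound of the fold of a fitted 24 h cosine wave was 1.27 at the median.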
